A study of Mus musculus with 8 samples.

Results

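The 38 genes described here code for components of basement membranes. These are the laminin chains, the collagen IV chains, the nidogens, the proteoglycans perlecan, agrin and the multiplexins, and other proteins that bind or modify them. The genes were chosen by symbol, and all 38 were found among the 47859 genes of the 2 count tables. RNA sequencing compared S89G-DMP1 with WT mice of the C57BL/6 strain in primary astrocytes from cortex, grown in DMEM with serum, and in neural stem cells (NSCs) from the sub-ventricular zone, grown as neurospheres in DMEM/F12 with N2 supplement. S89G-DMP1 mice carry a knock-in change of residue 89 of dentin matrix protein 1 from serine to glycine, which removes the attachment site of its glycosaminoglycan chain. The NSC comparison had 3 libraries per genotype and the astrocyte comparison 1 library per genotype. All samples are labelled as 10 weeks old. The knock-in was homozygous and present in every cell of the mouse, the selection cassette had been removed by crossing to an FLP line, and the controls were wild-type C57BL/6 mice.

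Basement membranes are thin sheets of extracellular matrix. Laminin heterotrimers of an alpha, a beta and a gamma chain polymerize on cell surfaces, collagen IV chains form a crosslinked network, and nidogen and perlecan connect these layers. In the brain, astrocyte end feet, endothelial cells and pericytes each contribute to the basement membrane around vessels, and neural progenitors contact a laminin-rich matrix in their niche.

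Each NSC library held between 2354615 and 2588130 counted reads, and the WT and S89G-DMP1 astrocyte libraries held 14008670 and 13016924. Nothing in the labels says that the NSC libraries came from separate animals or cultures, so p-values measure the spread between these libraries, which may be technical. The chi-square per gene between 2 NSC libraries, which is 1 for counting noise alone, was 1.07 to 1.51 within a genotype (11136 genes). Between genotypes it was 3.17 to 4.06. Libraries of the same genotype thus differed by little more than counting error, and small p-values do not stand for a spread between animals. Dmp1 itself had 18, 21 and 16 counts in the WT and 6, 3 and 5 counts in the S89G-DMP1 NSC libraries, which was a decrease of 1.90 ± 0.38 on the log2 scale (edgeR adjusted p = 1.30e-04). In astrocytes Dmp1 had 2 counts in the WT and 119 in the S89G-DMP1 library, a ratio of 52.3 (95% counting interval 14.2 to 437). The point mutation cannot be read from counts per gene, so these values do not check the labels. Markers bore out the astrocyte label only in part in the S89G-DMP1 culture and hardly in the WT culture. The 12 astrocyte markers summed to 171 CPM (counts scaled to library size) in the WT and 1575 CPM in the S89G-DMP1 astrocyte library. Aqp4, Slc1a3 and Mlc1 had 8, 8 and 2 counts in the WT library against 4051, 3877 and 2399. In the S89G-DMP1 library, the mural (4064 CPM), fibroblast and meningeal (2389 CPM) and neural progenitor (2256 CPM) markers each summed higher than the astrocyte markers. Its microglial (1008 CPM), oligodendrocyte lineage (333 CPM), neuronal (302 CPM) and endothelial (142 CPM) markers summed lower. The female-specific transcript Xist had 12172 counts in the WT and 74 in the S89G-DMP1 astrocyte library, while the Y-linked Ddx3y had 0 and 1277, so the cells of these 2 cultures also differed in sex. Every NSC library held reads of both Xist and the Y-linked genes.

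In NSCs, most of the tested basement membrane genes had a lower estimate in S89G-DMP1 than in WT, but only part of them were called. Of the 26 genes with enough reads to test, 13 fell and 1 rose at an adjusted p under 0.05 (quasi-likelihood test of edgeR, Benjamini-Hochberg adjusted over all 11194 genes tested, hereafter the edgeR adjusted p), and 12 were not called. Over all genes tested, 8.76% were called lower and 7.08% higher, 15.8% in all. The median log2 fold change of the 26 genes was -0.36, against 0.0026 over all genes tested, and 23 of the 26 had a negative value. In 16 of them every S89G-DMP1 library was below every WT library, which held for 16% of all genes tested, and in 1 every S89G-DMP1 library was above, which held for 14.8%. The genes that fell included the hemicentin Hmcn1, the laminin chain Lama4, the proteoglycans Col18a1, Hspg2 and Agrn, and Nid2, and the gene that rose was the fibulin Fbln2. All 24 genes that passed the filter on low counts in every library, and the 2 that passed through a mix of WT and S89G-DMP1 libraries (Col7a1 and Fbln5), entered the test, and none passed through 1 genotype alone.

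Most decreases were under 2-fold, and the number of calls depended on the method. DESeq2 called 10 of the 14 genes and missed Lamb2, Col4a5, Nid2 and Pxdn, and limma on the deposited TPM values called only Hmcn1 and Col18a1 lower and Fbln2 higher. In bulk libraries, fewer cells of a type and less RNA per cell cannot be told apart. Astrocyte markers moved with genotype in these neurospheres: 6 of the 9 tested were called higher in S89G-DMP1, among them Aldh1l1 (log2 fold change 1.03 ± 0.054) and Slc4a4 (1.27 ± 0.089), and the summed level of the list was 1799 to 1858 CPM in WT and 2535 to 2610 CPM in S89G-DMP1 libraries. Of 9 neural progenitor markers tested, 2 were higher, among them Fabp7 (0.56 ± 0.049), with sums of 3734 to 3973 CPM in WT and 4098 to 4166 CPM in S89G-DMP1. Fibroblast and endothelial markers were nearly absent: the 12 fibroblast and meningeal markers summed to at most 56.2 CPM and the 12 endothelial markers to at most 43.0 CPM in any NSC library, with Col1a2, Dcn, Cdh5 and Cldn5 at 0 in all 6. The 12 mural markers summed to 213 to 232 CPM in WT and 145 to 187 CPM in S89G-DMP1 NSC libraries, most of it Cspg4, which oligodendrocyte precursors also express and which fell (-0.56 ± 0.074), while 3 of the 12 were at 0 in all 6 and Rgs5 had at most 2 counts in any library. The part of these markers in the results was not tested.

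**Figure D1:**
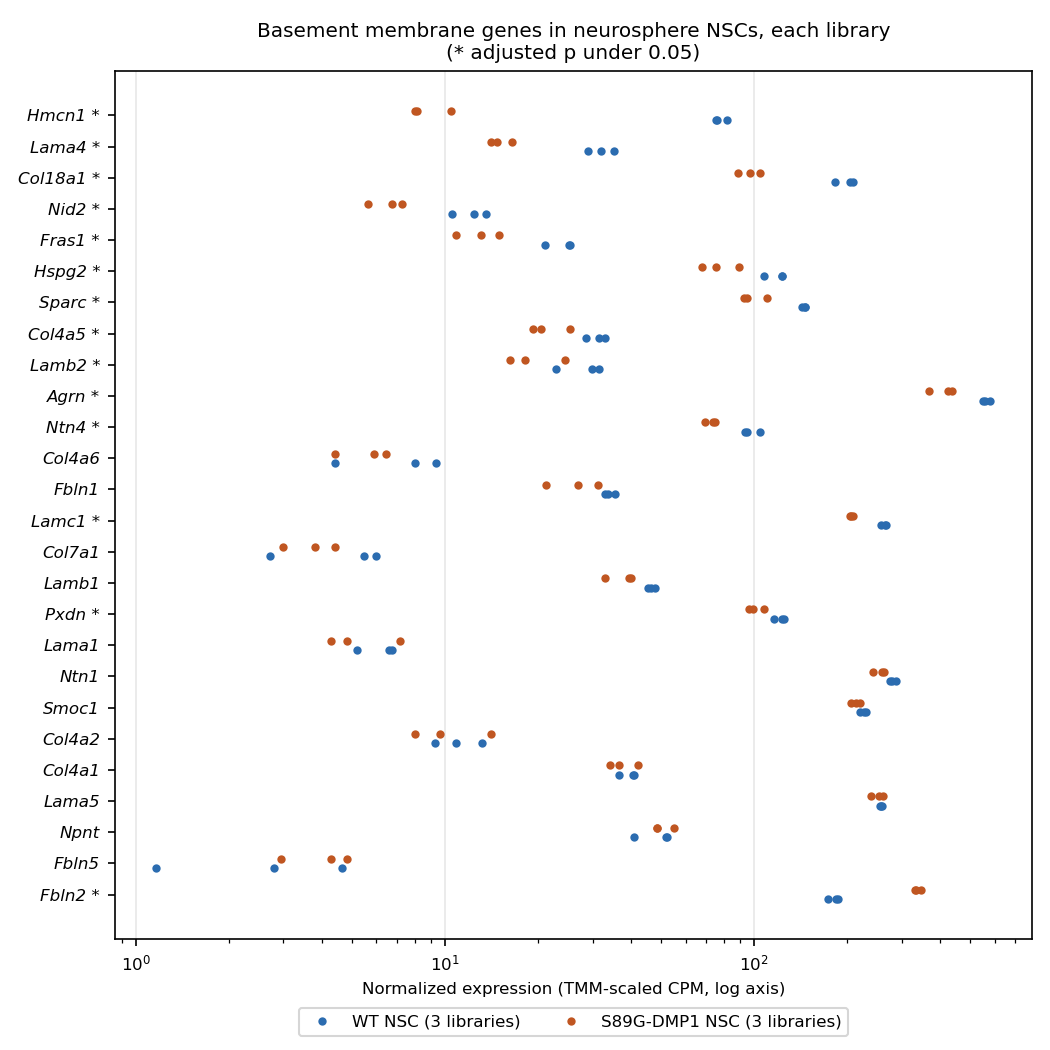
Normalized expression (TMM-scaled CPM, log axis) of the 26 tested basement membrane genes in each of the 3 WT and 3 S89G-DMP1 NSC libraries, ordered by log2 fold change, with an asterisk where the edgeR adjusted p was under 0.05. Hmcn1, at the top, has the widest gap (75.0 to 81.6 CPM in WT against 8.003 to 10.4 CPM), and Fbln2, at the bottom, is the only called gene with the S89G-DMP1 points on the right.

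Among the laminin chains, Lama4, Lamb2 and Lamc1 fell in S89G-DMP1 NSCs. The alpha 4 chain is found in vascular laminins. Lama4 (ENSMUSG00000019846, chr10:38965515-39110188) was at 29.1, 31.9 and 35.1 CPM in WT and 14.7, 14.1 and 16.4 CPM in S89G-DMP1 NSCs. The groups did not overlap, with the S89G-DMP1 mean at 15.1 and the WT mean at 32.03 CPM. Lama4 fell by 1.08 ± 0.16 on the log2 scale (edgeR adjusted p = 3.98e-07). Lamc1, the gamma chain shared by most laminin trimers, was at 258, 265 and 266 CPM in WT and 206, 208 and 203 CPM in S89G-DMP1 NSCs. The groups were well apart, and Lamc1 fell by 0.35 ± 0.062 on the log2 scale (edgeR adjusted p = 1.06e-05). Lamb2, the beta chain of synaptic and mature vascular laminins, was at 29.9, 22.9 and 31.6 CPM in WT and 18.1, 16.3 and 24.5 CPM in S89G-DMP1 NSCs. The highest S89G-DMP1 library was above the lowest WT library. Lamb2 fell by 0.51 ± 0.16 on the log2 scale (edgeR adjusted p = 0.0231), and it was no longer called without S89G-DMP1 library 1 (edgeR adjusted p = 0.0904), S89G-DMP1 library 2 (0.153), WT library 1 (0.0716) or WT library 3 (0.141).

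The other laminin chains were not called. Lama5, the broadly expressed alpha chain of adult basement membranes, was at 257, 254 and 259 CPM in WT and 261, 254 and 239 CPM in S89G-DMP1 NSCs. The groups overlapped (log2 fold change -0.031 ± 0.061, edgeR adjusted p = 0.799). Lamb1 was at 46.4, 45.5 and 47.9 CPM in WT and 32.9, 39.8 and 39.3 CPM in S89G-DMP1 NSCs, with every S89G-DMP1 library below every WT library (log2 fold change -0.32 ± 0.12, edgeR adjusted p = 0.0595). Lama1, the alpha chain of embryonic laminin, was close to the filter at 6.74, 6.604 and 5.19 CPM in WT and 7.16, 4.28 and 4.81 CPM in S89G-DMP1 NSCs (log2 fold change -0.19 ± 0.31, edgeR adjusted p = 0.754). Lama2, Lama3, Lamb3 and Lamc3 had between 0 and 6 counts in each NSC library, and no difference was detectable at this depth.

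Levels of different chains were set side by side per length, as counts per kilobase. By the length behind the deposited FPKM, Lama5 held 85.5% ± 0.935 (SD, n = 3) of the laminin alpha chain level in WT and 91.95% ± 0.675 in S89G-DMP1 NSCs, and Lama4 held 13.2% ± 1.07 and 6.85% ± 0.783. The Lama4 share was 12.1% to 14.2% in WT and 6.37% to 7.76% in S89G-DMP1, without overlap. This order (Lama5, then Lama4, with Lama1, Lama2 and Lama3 under 1% each) also held with the length of the exon union, except that Lama1 was then at 2.46% ± 0.368 in WT and 2.32% ± 0.574 in S89G-DMP1. The 2 lengths differed widely for some genes (3637 and 16338 bases for Lama2), which limits shares per length. Between the beta chains the order depended on the length: Lamb2 held 55.3% ± 3.63 and Lamb1 43.02% ± 3.66 in WT NSCs by the first length, and 48.4% ± 3.65 and 49.6% ± 3.74 by the second. Lamc1 made up 99.8% or more of the gamma chain level in each NSC library under both lengths.

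**Figure D2:**
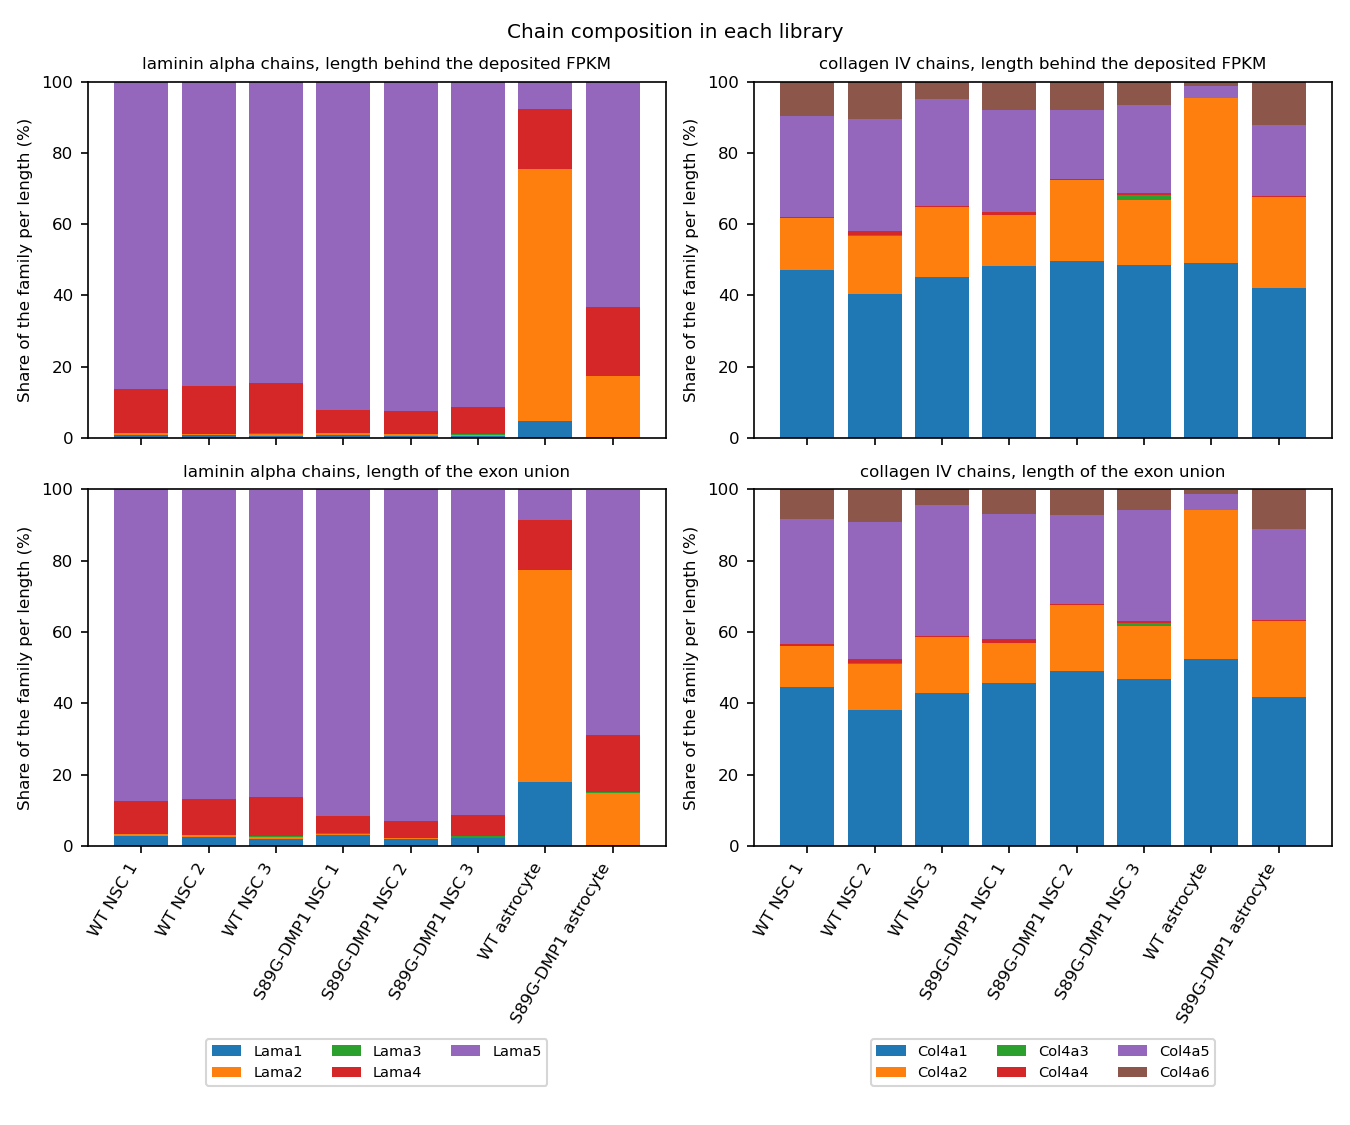
Share of each laminin alpha chain (left) and collagen IV chain (right) in the family's level per length, in percent, for each of the 8 libraries, by the length behind the deposited FPKM (top) and by the exon union (bottom). Lama5 fills most of the alpha chain bar in all 6 NSC libraries and in the S89G-DMP1 astrocyte library (63.3% by the first length), while Lama2 leads in the WT astrocyte library (70.5%).

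Of the 4 collagen IV genes tested in NSCs, only Col4a5 fell. The alpha 1 and alpha 2 chains form the collagen IV network of nearly all basement membranes, and the alpha 5 and alpha 6 chains join more specialized ones. Col4a5 was at 28.7, 33.02 and 31.6 CPM in WT and 25.3, 19.3 and 20.5 CPM in S89G-DMP1 NSCs. The groups did not overlap, and Col4a5 fell by 0.52 ± 0.15 on the log2 scale (edgeR adjusted p = 0.00953), a call that was lost without S89G-DMP1 library 2 (edgeR adjusted p = 0.0689). Its partner Col4a6 was at 8.01, 9.32 and 4.39 CPM in WT and 5.897, 6.42 and 4.41 CPM in S89G-DMP1 NSCs, with overlapping groups and few reads (log2 fold change -0.38 ± 0.31, edgeR adjusted p = 0.4502). Col4a1 was at 40.5, 36.5 and 40.7 CPM in WT and 36.6, 41.9 and 34.1 CPM in S89G-DMP1 NSCs (log2 fold change -0.064 ± 0.13, edgeR adjusted p = 0.797). Col4a2 was at 9.27, 10.9 and 13.2 CPM in WT and 8.003, 14.1 and 9.63 CPM in S89G-DMP1 NSCs (log2 fold change -0.078 ± 0.23, edgeR adjusted p = 0.876). The libraries of both genotypes overlapped for each of these 2 major chains. Col4a3 and Col4a4 had between 0 and 4 counts per NSC library.

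The 6 collagen IV genes lie in 3 head-to-head pairs. Col4a1 (minus strand) and Col4a2 (plus strand) on chromosome 8 start within 22 shared bases, Col4a4 and Col4a3 on chromosome 1 start 72 bases apart, and Col4a6 and Col4a5 on the X chromosome start 1309 bases apart. Whether the counting used strand is not given in the sources used here, so reads in the 22 bases shared by Col4a1 and Col4a2 could be split between them. The promoter windows of the X-linked pair are shown because only Col4a5 was called in NSCs and both were higher in the S89G-DMP1 astrocyte library. They are the RefSeq sequence (GRCm38.p6) from 250 to 51 bases upstream of the start site, 200 bases read 5′ to 3′ on the gene's strand and without the bases next to the start, and capitals mark a CCAAT box (CCAAT or ATTGG) or a GC box (GGGCGG or CCGCCC) on either strand. The Col4a5 window (chrX:141475169-141475368, plus strand) holds 1 CCAAT box, and the Col4a6 window (chrX:141474127-141474326, minus strand) holds neither motif.
Col4a5: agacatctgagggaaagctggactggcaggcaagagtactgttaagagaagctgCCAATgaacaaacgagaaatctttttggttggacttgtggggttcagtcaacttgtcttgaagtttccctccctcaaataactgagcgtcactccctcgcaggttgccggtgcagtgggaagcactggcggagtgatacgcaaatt
Col4a6: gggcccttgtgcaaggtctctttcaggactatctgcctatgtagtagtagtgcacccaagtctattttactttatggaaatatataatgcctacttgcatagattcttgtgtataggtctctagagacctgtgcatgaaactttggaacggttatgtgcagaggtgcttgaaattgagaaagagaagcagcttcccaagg

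Nidogens bridge the laminin and collagen IV networks. Nid2 was at 10.5, 13.6 and 12.4 CPM in WT and 6.74, 7.28 and 5.62 CPM in S89G-DMP1 NSCs. The groups did not overlap, and Nid2 fell by 0.90 ± 0.25 on the log2 scale (edgeR adjusted p = 0.00687), although DESeq2 did not call it (adjusted p = 0.168, DESeq2). Nid1 had 8, 5 and 8 counts in WT and 13, 9 and 11 counts in S89G-DMP1 NSC libraries and did not pass the filter. Per length, Nid2 held 83.95% ± 5.203 (SD, n = 3) of the nidogen level in WT and 63.9% ± 5.37 in S89G-DMP1 NSCs.

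All 3 basement membrane heparan sulfate proteoglycans with reads in NSCs fell. Perlecan, agrin and collagen XVIII carry heparan sulfate chains that bind growth factors, and agrin also ties laminin to the receptor dystroglycan. Col18a1 (ENSMUSG00000001435, chr10:77052178-77166548) was at 209, 182 and 204 CPM in WT and 104, 88.6 and 96.7 CPM in S89G-DMP1 NSCs. Its lowest WT library was above its highest S89G-DMP1 library by more than the spread within either genotype, and Col18a1 fell by 1.04 ± 0.075 on the log2 scale (edgeR adjusted p = 5.36e-18). Agrn, the most abundant of the 26 genes in WT NSCs by reads, was at 548, 557 and 580.3 CPM in WT and 435, 424 and 367 CPM in S89G-DMP1 NSCs. Again without overlap, Agrn fell by 0.46 ± 0.056 on the log2 scale (edgeR adjusted p = 1.53e-09). Hspg2, which codes for perlecan, was at 108, 123 and 123 CPM in WT and 89.3, 75.3 and 67.8 CPM in S89G-DMP1 NSCs. The 2 ranges were apart, and Hspg2 fell by 0.61 ± 0.088 on the log2 scale (edgeR adjusted p = 1.95e-07). Col15a1, the other multiplexin, had 0 counts in all 6 NSC libraries.

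The promoter windows of these 3 genes are shown because the genes fell together. Capitals mark the same motifs as for Col4a5. The Hspg2 window (chr4:137468553-137468752, plus strand) holds 5 GC boxes and no CCAAT box, the Agrn window (chr4:156197539-156197738, minus strand) holds 10 GC box matches, of which some overlap, and the Col18a1 window (chr10:77166581-77166780, minus strand) holds 1 GC box and 1 CCAAT box. Agrn and Col18a1 each have 1 more window, at a RefSeq start inside the gene, and these (chr4:156186310-156186509 and chr10:77113756-77113955) hold neither motif. The windows shown are those at the 5′ end of the gene. RefSeq windows were found for 27 of the 38 genes, 35 windows in all. A GC box was in 13 of these 35 windows (37.1%) and in 24.6% of all 32851 windows and a CCAAT box in 10 (28.6%) and in 28.4%.
Hspg2: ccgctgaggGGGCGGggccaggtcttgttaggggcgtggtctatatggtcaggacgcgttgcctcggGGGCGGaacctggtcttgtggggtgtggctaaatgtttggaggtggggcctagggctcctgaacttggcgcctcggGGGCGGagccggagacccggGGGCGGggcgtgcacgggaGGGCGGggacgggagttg
Agrn: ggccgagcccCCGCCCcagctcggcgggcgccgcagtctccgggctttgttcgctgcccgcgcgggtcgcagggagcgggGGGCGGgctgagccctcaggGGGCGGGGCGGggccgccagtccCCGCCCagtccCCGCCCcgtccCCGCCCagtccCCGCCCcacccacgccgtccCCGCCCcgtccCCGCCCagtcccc
Col18a1: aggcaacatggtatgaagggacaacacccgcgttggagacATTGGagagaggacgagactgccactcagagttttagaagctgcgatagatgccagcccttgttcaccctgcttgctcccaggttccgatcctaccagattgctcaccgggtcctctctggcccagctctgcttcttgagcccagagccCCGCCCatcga

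The largest decrease of the list was that of Hmcn1 (ENSMUSG00000066842, chr1:150562524-150993435), which codes for hemicentin 1, a very large matrix protein of the fibulin family. Hmcn1 was at 75.01, 81.6 and 75.9 CPM in WT and 8.003, 8.13 and 10.4 CPM in S89G-DMP1 NSCs. WT libraries were close to each other and far from the S89G-DMP1 libraries. Hmcn1 was 8.69-fold lower and fell by 3.12 ± 0.15 on the log2 scale (edgeR adjusted p = 7.16e-27). Per length it stood at the 31.9 percentile of the tested genes in WT NSCs and at the 1.48 percentile in S89G-DMP1 NSCs. It was called lower by every method tried, the TPM values included. Fras1, the core of the Fraser complex beneath embryonic epithelia, was at 25.3, 20.98 and 25.2 CPM in WT and 13.1, 14.98 and 10.8 CPM in S89G-DMP1 NSCs. The groups did not overlap, and Fras1 fell by 0.88 ± 0.18 on the log2 scale (edgeR adjusted p = 2.21e-04). Its partners Frem1 and Frem2 had 3 to 10 counts per NSC library and were not tested.

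The window upstream of Hmcn1 (chr1:150993486-150993685, minus strand, same source and marks) is shown because this gene differed most. It holds 2 CCAAT boxes, 1 on each strand, and no GC box.
Hmcn1: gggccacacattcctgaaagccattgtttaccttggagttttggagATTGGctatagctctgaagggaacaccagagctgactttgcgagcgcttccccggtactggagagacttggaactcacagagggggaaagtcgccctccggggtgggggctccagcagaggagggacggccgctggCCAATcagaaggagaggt

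Fibulins are calcium-binding glycoproteins of basement membranes and elastic fibres. Fbln2 (ENSMUSG00000064080, chr6:91212455-91272540) was at 174, 186 and 185 CPM in WT and 347, 333 and 331 CPM in S89G-DMP1 NSCs. Every S89G-DMP1 library was far above every WT library. Fbln2 rose by 0.89 ± 0.061 on the log2 scale (edgeR adjusted p = 6.13e-19), the only member called higher. Fbln1 was at 35.4, 33.02 and 33.5 CPM in WT and 31.2, 26.96 and 21.3 CPM in S89G-DMP1 NSCs, without overlap but not called (log2 fold change -0.36 ± 0.14, edgeR adjusted p = 0.07304), and it was called lower in the fit without S89G-DMP1 library 1. Fbln5 had at most 4.81 CPM in any library and was not called (log2 fold change 0.51 ± 0.42, edgeR adjusted p = 0.467).

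Netrins are laminin-related proteins, and netrin 4 binds laminin gamma chains. Ntn4 was at 93.1, 94.8 and 104 CPM in WT and 74.6, 73.6 and 69.4 CPM in S89G-DMP1 NSCs. The groups did not overlap, and Ntn4 fell by 0.43 ± 0.089 on the log2 scale (edgeR adjusted p = 2.27e-04). Ntn1 was at 278, 288 and 276 CPM in WT and 259, 263 and 243 CPM in S89G-DMP1 NSCs, also without overlap, but it was not called (log2 fold change -0.14 ± 0.060, edgeR adjusted p = 0.104). Sparc, a collagen-binding glycoprotein, was at 146, 146 and 143 CPM in WT and 94.8, 109.99 and 92.7 CPM in S89G-DMP1 NSCs. All WT libraries were above all S89G-DMP1 libraries, and Sparc fell by 0.55 ± 0.077 on the log2 scale (edgeR adjusted p = 8.51e-08). Pxdn, the peroxidase that forms the sulfilimine crosslinks of collagen IV, was at 125, 123 and 116 CPM in WT and 96.5, 107 and 99.5 CPM in S89G-DMP1 NSCs. Pxdn fell by 0.26 ± 0.079 on the log2 scale (edgeR adjusted p = 0.01302), the smallest called change of the list, and the call was lost without S89G-DMP1 library 1 (edgeR adjusted p = 0.0773) or S89G-DMP1 library 3 (0.0506). Smoc1, a secreted relative of Sparc, was at 226, 220.3 and 229.6 CPM in WT and 219, 205 and 213 CPM in S89G-DMP1 NSCs and was not called (log2 fold change -0.084 ± 0.063, edgeR adjusted p = 0.412). Npnt, an integrin ligand, showed overlapping groups at 40.9, 52.1 and 51.9 CPM in WT and 48.4, 55.2 and 48.5 CPM in S89G-DMP1 NSCs (log2 fold change 0.065 ± 0.11, edgeR adjusted p = 0.766). Col7a1, the anchoring fibril collagen, reached at most 5.99 CPM in any library (log2 fold change -0.32 ± 0.37, edgeR adjusted p = 0.629). Smoc2 and Tinagl1 had between 0 and 4 counts per library.

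In the astrocyte cultures, basement membrane genes differed in both directions, with no replicate check of any of these differences. Of the 37 genes that reached 10 counts in 1 or both libraries, 12 were lower and 13 higher in S89G-DMP1 by 2-fold or more, and 12 were within 2-fold. Over all 15680 genes so counted, 12.8% were lower and 17.3% higher to this degree, 30.1% in all (2010 and 2713 genes, or 1514 and 3488 when scaled by library size alone). Lower in S89G-DMP1 were, among others, the collagen IV chains Col4a1 and Col4a2, the nidogen Nid1 and the laminin chains Lama1 and Lama2. Among the higher genes were Lama5, Nid2, Ntn1, Npnt and the Fraser complex genes Frem1 and Frem2. The median log2 ratio of the 37 genes was 0.26, against 0.01 over all counted genes. Both medians were higher when scaled by library size alone. Summed over the 38 genes, basement membrane expression was 21495 CPM in the WT and 13545 CPM in the S89G-DMP1 library. The log2 ratios were taken of CPM scaled by TMM after adding a prior count of 2, and the counting intervals (95%, exact binomial) cover counting error only.

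Markers of other cells differed between these cultures in the same range. Of 11 fibroblast and meningeal markers counted, 8 were lower by 2-fold or more in S89G-DMP1, such as Foxd1 (2878 and 26 counts in WT and S89G-DMP1), Col1a2 (9347 and 1224) and Pdgfra (1755 and 100), and their sum was 5967 CPM in the WT and 2389 CPM in the S89G-DMP1 library. Of 10 endothelial markers, 6 were lower by this measure and 1 higher, with sums of 1170 and 142.1 CPM, led by Eng (11770 and 157 counts) and Cdh5 (1917 and 23), while Cldn5 was at 0 in both. Of 10 mural markers, 4 were lower and 1 higher, with sums of 3384 and 4064 CPM, among them Rgs5 (2431 and 39 counts) and Acta2 (9152 and 35539), while Kcnj8 and Higd1b were at 0 in both. In the opposite direction, 9 of 11 astrocyte markers were higher by 2-fold or more, and 1 was lower. Of 9 neural progenitor markers, 8 were higher and 0 lower to this degree, with sums of 777 and 2256 CPM. Of 8 microglial markers, 4 were higher and 1 lower, with sums of 616 and 1008 CPM. The part of these markers, and of the sex of the cultures, in the basement membrane values was not tested.

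**Figure D3:**
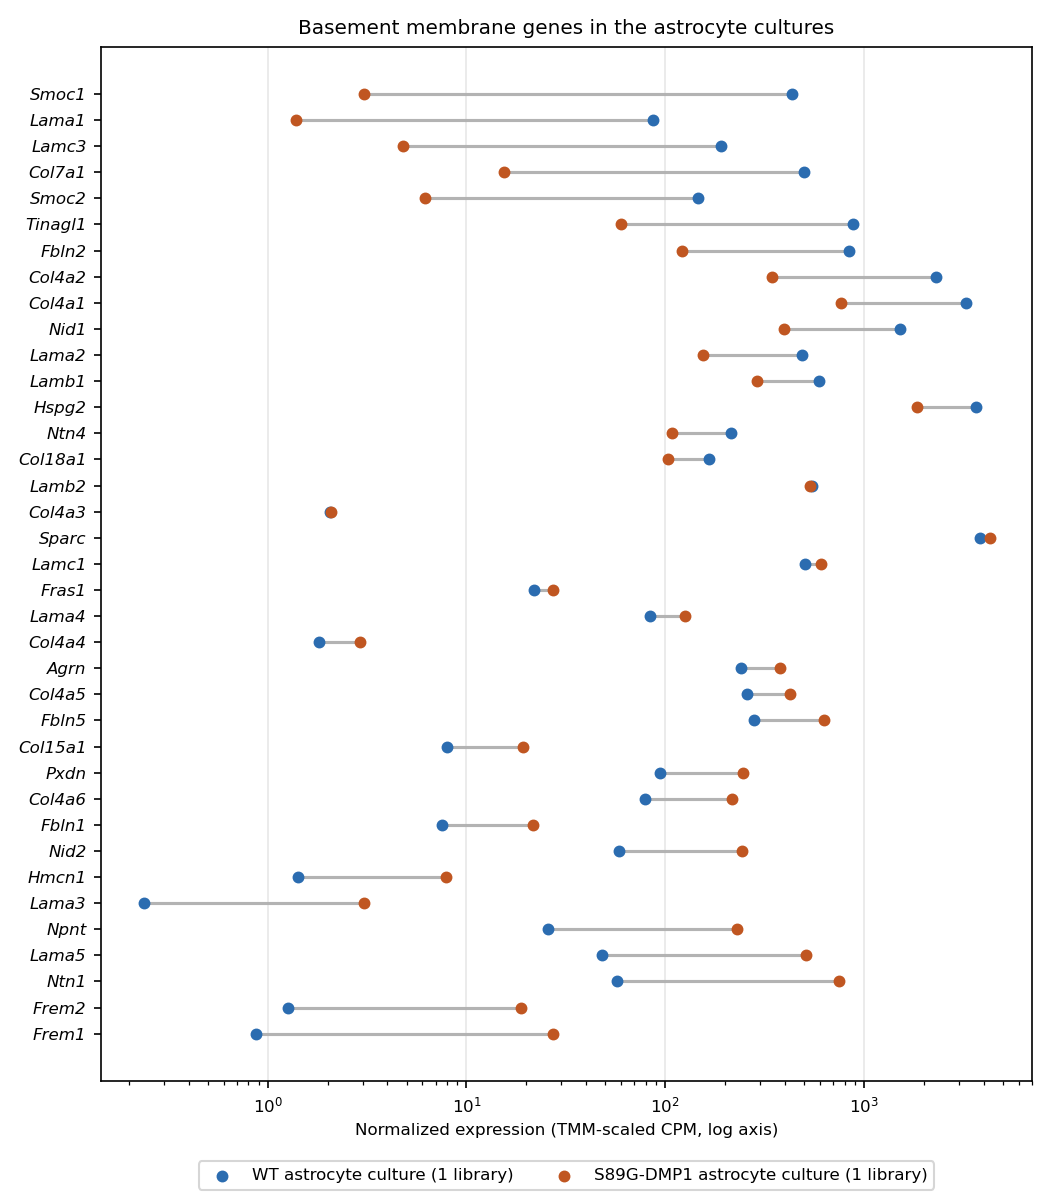
Normalized expression (TMM-scaled CPM, log axis) of the 37 counted basement membrane genes in the WT and the S89G-DMP1 astrocyte library, 1 library each, joined by a grey line and ordered by log2 ratio. Smoc1, at the top, spans 436 to 3.06 CPM, and Frem1, at the bottom, 0.869 to 27.2 CPM in the other direction, while Sparc lies at 3852 and 4290 CPM.

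The laminin alpha chain with the highest level differed between the cultures. Lama2, the alpha chain of astrocyte and muscle laminins, was at 486 CPM (6151 counts) in the WT and 155 CPM (2230 counts) in the S89G-DMP1 library, a log2 ratio of -1.65. Lama1 was at 86.5 CPM (1094 counts) in the WT and 1.39 CPM (20 counts) in the S89G-DMP1 library, which is 62.2-fold lower (counting interval 40.1 to 102). Lama5 was at 48.1 CPM (609 counts) in the WT and 511 CPM (7346 counts) in the S89G-DMP1 library, which is 10.6-fold higher (counting interval 9.77 to 11.5). Per length, Lama2 led in WT with 70.5% of the alpha chain level against 7.79% for Lama5, and Lama5 led in S89G-DMP1 with 63.3% against 17.2% for Lama2. The exon union length gave the same leaders (59.6% Lama2 in WT and 68.9% Lama5 in S89G-DMP1), but placed Lama1 above Lama4 in WT, where the first length placed it below. Lama4 was at 84.2 CPM (1065 counts) in the WT and 125 CPM (1800 counts) in the S89G-DMP1 library (log2 ratio 0.57). Lama3 had 3 counts in the WT and 44 in the S89G-DMP1 library, a ratio of 12.9 (counting interval 4.14 to 64.96).

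Of the beta and gamma chains, Lamb1 was at 595 CPM (7530 counts) in the WT and 289 CPM (4161 counts) in the S89G-DMP1 library (log2 ratio -1.04, or -0.75 when scaled by library size alone, which puts it within 2-fold). Lamb2 and Lamc1, which both fell in NSCs, were close to equal here, with log2 ratios of -0.029 and 0.26 (the first turned positive at 0.26 by library size alone). Lamc3, a gamma chain with a narrow tissue range, was at 192 CPM (2427 counts) in the WT and 4.798 CPM (69 counts) in the S89G-DMP1 library, which is 39.98-fold lower (counting interval 31.5 to 51.6). It held 19.1% of the gamma chain level in WT and 0.491% in S89G-DMP1 by the length behind the FPKM, and 34.02% and 1.07% by the exon union. Lamb3 had 6 and 4 counts and was not counted.

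The collagen IV genes differed in both directions. Col4a1 was at 3275 CPM (41432 counts) in the WT and 769 CPM (11062 counts) in the S89G-DMP1 library, which is 4.26-fold lower (counting interval 4.17 to 4.35). Col4a2 was at 2298 CPM (29067 counts) in the WT and 345 CPM (4965 counts) in the S89G-DMP1 library, which is 6.66-fold lower (counting interval 6.46 to 6.86). Col4a1 stood at the 99.6 and Col4a2 at the 99.6 percentile of counted genes per length in WT. The X-linked Col4a5 (log2 ratio 0.71) and Col4a6 (1.47) had the opposite sign. Col4a6 was at 78.7 CPM (996 counts) in the WT and 218 CPM (3130 counts) in the S89G-DMP1 library. By the length behind the FPKM, Col4a5 and Col4a6 held 3.32% and 1.22% of the collagen IV level in WT and 19.9% and 12.3% in S89G-DMP1. The sum over the family was lower in S89G-DMP1 (553 against 1653 FPKM, without TMM scaling). Col4a3 and Col4a4 had 26 and 23 counts in WT and 30 and 42 in S89G-DMP1.

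The nidogens went opposite ways. Nid1 was at 1525 CPM (19290 counts) in the WT and 398 CPM (5720 counts) in the S89G-DMP1 library, which is 3.83-fold lower (counting interval 3.72 to 3.95). Nid2 was at 58.5 CPM (740 counts) in the WT and 244 CPM (3502 counts) in the S89G-DMP1 library, which is 4.16-fold higher (counting interval 3.84 to 4.51). Nid1 still led per length in both, with 95.5% of the nidogen level in WT and 56.9% in S89G-DMP1. The proteoglycans that fell in NSCs were within 2-fold: Hspg2 had a log2 ratio of -0.98 (3673 and 1857 CPM), Col18a1 -0.69 and Agrn 0.65. Col15a1 was at 7.98 CPM (101 counts) in the WT and 19.3 CPM (277 counts) in the S89G-DMP1 library (log2 ratio 1.26).

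Among the matricellular and anchoring proteins, Smoc1 differed most of all members. Smoc1 (chr12:81026808-81186414) was at 436 CPM (5521 counts) in the WT and 3.06 CPM (44 counts) in the S89G-DMP1 library, which is 143-fold lower (counting interval 106 to 197). Smoc2 was at 147 CPM (1856 counts) in the WT and 6.19 CPM (89 counts) in the S89G-DMP1 library (log2 ratio -4.53). Col7a1 was at 498 CPM (6302 counts) in the WT and 15.4 CPM (222 counts) in the S89G-DMP1 library (log2 ratio -5.00). Smoc1 and Col7a1 were tested in NSCs and not called there, and Smoc2 was at the count floor in NSCs. Tinagl1, a secreted cysteine-protease-like glycoprotein that binds laminin, was at 884 CPM (11187 counts) in the WT and 60.01 CPM (863 counts) in the S89G-DMP1 library (log2 ratio -3.88). Fbln2 was at 844 CPM (10682 counts) in the WT and 121 CPM (1745 counts) in the S89G-DMP1 library (log2 ratio -2.80). Fbln5 (log2 ratio 1.17) and Fbln1 (1.498) were higher instead, at 627 and 21.5 CPM in S89G-DMP1.

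Among the genes higher in the S89G-DMP1 culture, Ntn1 was at 57.1 CPM (722 counts) in the WT and 747 CPM (10744 counts) in the S89G-DMP1 library, which is 13.1-fold higher (counting interval 12.1 to 14.1). Npnt was at 25.8 CPM (327 counts) in the WT and 229.7 CPM (3303 counts) in the S89G-DMP1 library, which is 8.89-fold higher (counting interval 7.93 to 9.99). Both code for secreted ligands, of DCC and UNC5 receptors and of integrins. Frem1 was at 0.869 CPM (11 counts) in the WT and 27.2 CPM (391 counts) in the S89G-DMP1 library, and Frem2 at 1.26 CPM (16 counts) in the WT and 18.7 CPM (269 counts) in the S89G-DMP1 library. Fras1, the third member of their complex, was within 2-fold (log2 ratio 0.33). Hmcn1 had 18 counts in the WT and 114 in the S89G-DMP1 library, a ratio of 5.57 (counting interval 3.37 to 9.74). Pxdn was at 94.5 CPM (1196 counts) in the WT and 246 CPM (3538 counts) in the S89G-DMP1 library (log2 ratio 1.38). Sparc, one of the most abundant transcripts of either culture per length, was nearly equal (log2 ratio 0.16), and Ntn4 was just within 2-fold (-0.98).

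Of the 26 genes measured in both cell types, 12 had the same sign and 14 opposite signs. Of the 13 genes that fell in NSCs, 9 had a log2 ratio above 0 in astrocytes, 3 of them by 2-fold or more (Hmcn1, Nid2 and Pxdn), and none was lower by 2-fold or more. All 12 genes tested and not called in NSCs were at least 2-fold apart in the astrocyte cultures, except that Lamb1 was within 2-fold when scaled by library size alone. Over all genes counted in astrocytes, 12.8% were lower and 17.3% higher by 2-fold or more, 30.1% in all. The shares over all genes measured in both cell types were not computed, so the counts in this paragraph only describe the members. Different processing tools are listed for the 2 tables, and the difference between cell types was not tested.

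**Figure D4:**
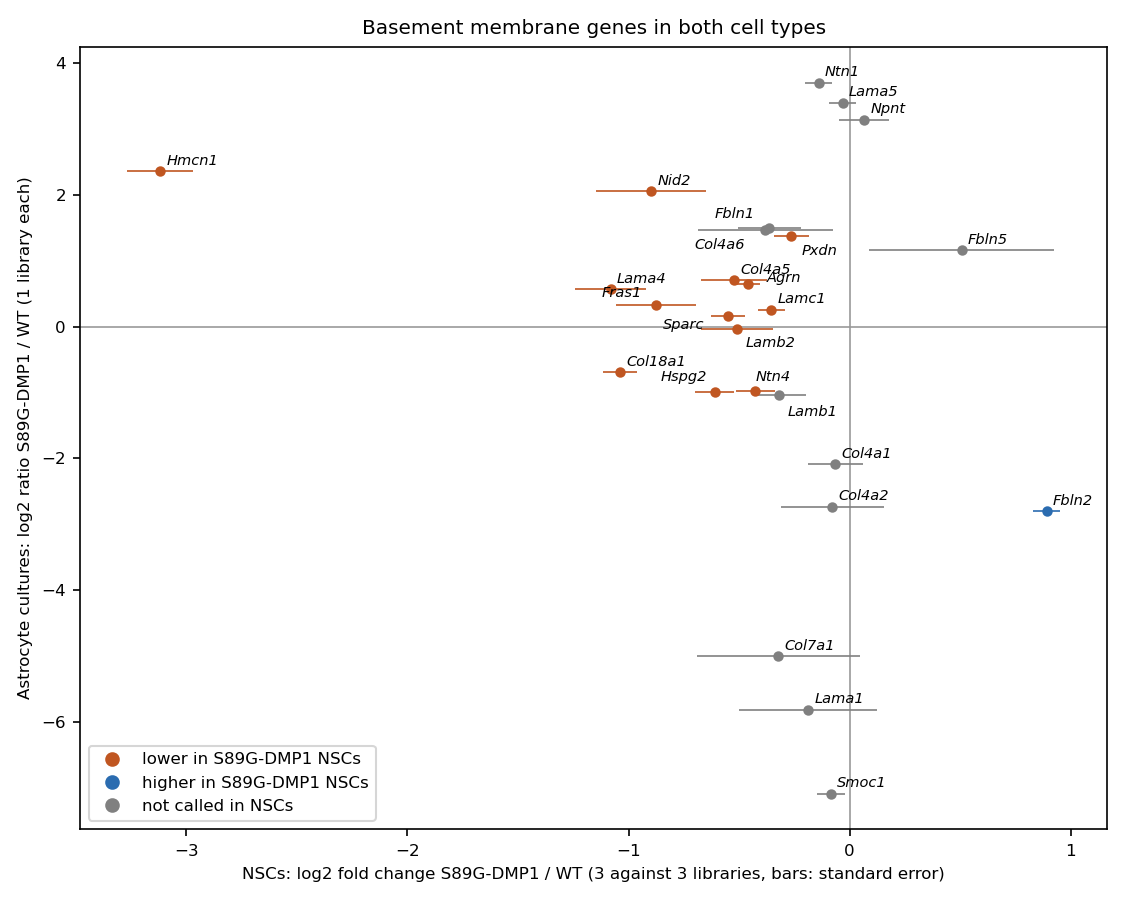
Log2 fold change between S89G-DMP1 and WT NSCs (x axis, 3 against 3 libraries, bars show the standard error) against the log2 ratio of the S89G-DMP1 to the WT astrocyte library (y axis, 1 library each, no error) for the 26 genes measured in both, coloured by their call in NSCs. The 13 genes called lower in NSCs lie between -0.98 and 2.36 on the y axis, and Fbln2 lies at 0.89 and -2.80.

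Other genes of basement membrane assembly were described by lists of their known functions, the first of them the receptors. Their counts stand beside the 8.76% of all tested genes that fell and the 7.08% that rose in NSCs, and the 12.8% lower and 17.3% higher by 2-fold or more in astrocytes. Of 15 receptor genes tested, 4 fell and 1 rose. Dag1, which codes for dystroglycan, fell from 483 ± 11.6 to 394 ± 10.8 CPM (SD, n = 3, log2 fold change -0.29 ± 0.054, edgeR adjusted p = 2.92e-05). The laminin-binding integrin subunit Itga7 (-0.54 ± 0.11), the common subunit Itgb1 (-0.14 ± 0.050) and the netrin receptor Unc5b (-0.48 ± 0.16) also fell, and the syndecan Sdc3 rose (0.17 ± 0.050). In the astrocyte cultures, 2 of 17 receptors were lower and 7 higher by 2-fold or more, at the extremes the collagen receptor Ddr2 (log2 ratio -2.81) and Unc5b (-1.88), and Itga3 (2.86) and Lrp4 (2.52), which binds agrin. In the dystrophin-dystroglycan complex, which ties laminin to the cytoskeleton, Dag1, Sntb2 (-0.61 ± 0.22) and Sgce (-0.45 ± 0.14) fell and Dmd rose (0.75 ± 0.091, edgeR adjusted p = 1.27e-09) among 9 genes tested in NSCs. Of 12 counted in astrocytes, none was lower and 2 were higher by 2-fold or more (Dtna, 2.44, and Sntb1, 2.10). Of the enzymes that build the laminin-binding glycan of dystroglycan, 1 of 11 fell in NSCs (Pomgnt2, -0.84 ± 0.20), and none of 11 differed by 2-fold in astrocytes.

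Of 19 genes for folding, crosslinking and export of collagen IV tested in NSCs, 3 fell and none rose. These were the prolyl hydroxylase P3h2 (-1.18 ± 0.18), and the secretory pathway genes Tram2 (-1.34 ± 0.24) and Sec23a (-0.34 ± 0.089). In the astrocyte cultures 11 of 24 were lower by 2-fold or more, led by P4ha2 (log2 ratio -2.77) and Lox (-2.09), and 1 was higher (P3h2, 2.55). Of 20 proteases and inhibitors tested in NSCs, 6 fell and 1 rose. The proteoglycan-cleaving Adamts5 fell from 43.6 ± 6.93 to 14.3 ± 1.23 CPM (SD, n = 3, log2 fold change -1.60 ± 0.16, edgeR adjusted p = 1.07e-12), with Adamts1 (-0.77 ± 0.083), Adamts9 (-0.27 ± 0.081), Bmp1 (-0.35 ± 0.069), Timp2 (-0.23 ± 0.079) and Serpine2 (-0.33 ± 0.045). Adamts4, of the same protease family, rose from 43.1 ± 5.34 to 92.9 ± 7.81 CPM (1.11 ± 0.10, edgeR adjusted p = 1.61e-13). In astrocytes 12 of 25 were lower to this degree, among them the inhibitor Timp3 (log2 ratio -4.05), and 4 higher, led by Timp4 (4.15) and Adamts9 (3.41). Of 17 genes for heparan sulfate chains tested in NSCs, 4 fell and none rose: the sulfatase Sulf2 (-0.63 ± 0.053, edgeR adjusted p = 3.71e-15), the chain initiator Xylt1 (-0.26 ± 0.053), Extl3 (-0.33 ± 0.065) and the sulfotransferase Ndst2 (-0.43 ± 0.15). In astrocytes 3 of 21 were lower to this degree, led by Sulf1 (log2 ratio -2.85) and Glce (-1.38), and 5 higher, led by Ndst3 (3.62) and Hs6st2 (2.76).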

How the data were processed

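2 RNA sequencing libraries of primary astrocytes (1 WT, 1 S89G-DMP1) and 6 of NSCs (3 WT, 3 S89G-DMP1) were grouped by their labels. The authors discarded adapter-containing, ambiguous and low-quality reads. The submitters' processing notes list TopHat2 2.0.9 and Bowtie2 2.0.6 for the astrocyte libraries, and HISAT2, StringTie, featureCounts and GRCm38 for the NSC libraries. For each cell type the authors deposited raw read counts per gene. The deposited FPKM values of the astrocytes equal counts divided by the library total and by 1 length per gene. TPM values of the NSCs were deposited by the authors as well, and some well counted genes are listed there at 0, so the counts were the main source. The program that counted the astrocyte reads, the annotation and the use of strand are not given in the sources used here.

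Genes were matched by Ensembl identifier through GENCODE M21. In R 4.3.3, the NSC counts were filtered with filterByExpr (about 4.08 CPM in 3 libraries), scaled by TMM and compared with edgeR 4.0.16 (quasi-likelihood test, genotype as the only term, Benjamini-Hochberg adjustment, threshold 0.05). The 2 astrocyte libraries were compared by log2 ratios of scaled CPM without a test. Levels per length used the length behind the FPKM and, as an alternative added after the data were seen, the exon union. The fitting code was run on simulated counts with 200 changed genes as a check of the code alone, and no result here rests on it. Other alternatives were DESeq2 1.42.0, limma 3.58.1 on log2(TPM + 1) and log2(TPM + 0.1), log2(FPKM + 1) and log2(FPKM + 0.1), scaling by upper quartile, by RLE or by library size alone, other filters, prior counts and fold thresholds, a replicate block, and leaving out each NSC library.

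The members and all lists were chosen with earlier results of these data known. Members called in NSCs, members 2-fold apart in astrocytes with at least 50 counts in the higher library, and the counted laminin, collagen IV, nidogen, perlecan and agrin genes were described one by one. From the other lists, genes called in NSCs and the 2 largest astrocyte differences in each direction with at least 50 counts were named. Of 8 oligodendrocyte lineage markers, 0 of 4 tested were called in NSCs, and 3 were higher and 1 lower by 2-fold or more among 7 counted in astrocytes. Of 9 neuronal markers, 1 of 5 tested fell in NSCs (Syt1), and 3 were higher and 1 lower among 5 counted in astrocytes. Of 12 mural markers, 1 of 2 tested fell in NSCs (Cspg4). Of 12 fibroblast and meningeal markers, 1 of 3 tested fell (Pdgfra) and 1 rose (Cdh11), of 12 endothelial markers 1 of 2 rose (Flt1), and of 8 microglial markers 0 of 1 was called. None of the 5 sex-linked genes was called in NSCs.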

Additional observations from a re-analysis of the deposited data

Results flagged for a closer look

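Opposite directions in the 2 cell types drew attention to 4 genes that were called in NSCs and at least 2-fold apart in the astrocyte cultures. Their NSC libraries did not overlap. Other members had opposite signs without meeting both conditions. Examples are Ntn1 (-0.14 in NSCs, not called, and 3.71 in astrocytes) and Lama4 (-1.08 and 0.57, within 2-fold in astrocytes). Hmcn1 had a log2 fold change of -3.12 in NSCs and a log2 ratio of 2.36 in the astrocyte cultures, the latter from 18 and 114 counts. Nid2 was at -0.90 in NSCs and at 2.05 in astrocytes. Pxdn was at -0.26 and 1.38. Fbln2 went the other way, with 0.89 in NSCs and -2.80 in astrocytes. The difference between the cell types was not tested for any of these genes, because each genotype had 1 astrocyte library and different processing tools are listed for the 2 tables.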

How the results depend on the processing

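Under the 9 alternatives other than leaving out a library, no called gene was called in the opposite direction. Of the 14 calls in NSCs, 10 held in every fit on counts. The size of some called changes depended on the method. Over all alternatives the log2 fold change ran from -0.456 to -0.205 for Ntn4, -0.367 to -0.208 for Lamc1 and -0.911 to -0.505 for Sparc. On TPM, limma called 2 genes lower with either pseudocount. DESeq2 called 424 genes lower and 321 higher over all genes against 981 and 792 with edgeR, and limma on TPM called 107 and 38 (pseudocount 1) or 85 and 31 (pseudocount 0.1). The median log2 fold change of the tested genes was -0.316 with DESeq2, -0.312 without a filter, -0.375 with at least 10 counts in every library, -0.384 on log2(TPM + 1) and -0.422 on log2(TPM + 0.1), and -0.428 to -0.321 when 1 library was left out, where 11 to 13 genes were called lower. Lama5, not called, changed sign on TPM (0.0791 and 0.0803). Without single libraries, values near 0 also changed sign, from -0.0566 to 0.0033 for Lama5, -0.1496 to 0.0017 for Col4a1, -0.333 to 0.0853 for Col4a2 and -0.0366 to 0.121 for Npnt. With the replicate number as a block, 13 genes were called lower and 1 higher, as without it. Same-numbered libraries did not deviate together (correlations -0.017 to 0.028), so the numbers do not pair the samples. In astrocytes, scaling by library size alone moved the median of all genes to 0.30, and the median of the members to 0.550, against 0.446 on log2(FPKM + 1) and 0.550 on log2(FPKM + 0.1). Over all genes, 1020 were lower by 2-fold on log2(FPKM + 1), and 1669 higher when both libraries needed 10 counts. At a 4-fold threshold 8 members were higher and 9 lower. The cause of these shifts was not tested. Read depth limits the NSC results for genes with few counts, and the astrocyte ratios carry no error other than that of counting.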
